A study of Mus musculus with 6 samples.

Results

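Cdx2, Gata3, Elf5, Tfap2c, Esx1, Rhox6, Rhox9, Krt8, Krt18 and Krt19 are 10 genes used as markers of trophoblast, the outer lineage of the mouse embryo that builds the placenta, and of the simple epithelia found there. They were taken by name, 10 of the 18857 genes in the joined table, and read in all 6 libraries of a study of Erk signalling in mouse embryonic stem cells (ESCs). PolyA RNA of ESCs of the KH2 line, on a C57BL/6 x 129 background, was sequenced with 1 library per group. KH2 is a line built for transgenes that doxycycline (Dox) switches on, and PD0325901 blocks Mek, the kinase that switches on Erk.

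The wild-type KH2 cells were untreated or had PD0325901 for 48 hours. The other 4 libraries came from cells of genotype iErk1; Erk KO, an Erk knockout that carries an inducible Erk1. Of these, 1 library was made with Dox kept on and 3 after its withdrawal, at 48 hours, at 96 hours, and at 96 hours with PD0325901 present during the last 48. The labels gave no inhibitor dose, no clone and no statement on feeder cells. Library totals ran from 9.05 to 9.95 in units of 1e6 reads assigned to genes, and 16042 to 17403 genes had a read. Mapk3, which encodes Erk1, stood at 56.4 and 52.8 RPKM (reads per kilobase of gene and 1e6 reads of the library) in the untreated and treated KH2 libraries and at 14.8 RPKM in the line with Dox. Without Dox it had 6.86 RPKM at 48 hours, 6.75 RPKM at 96 hours and 9.18 RPKM at 96 hours with the inhibitor.

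In the embryo, Cdx2, Gata3, Elf5 and Tfap2c act as transcription factors of the trophectoderm and of trophoblast stem cells, while Pou5f1 is linked to the pluripotent state. Esx1, Rhox6 and Rhox9 are X-linked homeobox genes expressed in the placenta, and the last of these are neighbours in the Rhox cluster. Krt8 encodes a type II keratin that pairs with the type I keratins of Krt18 and Krt19 to form the filaments of simple epithelia, which also include the extraembryonic endoderm. Fgf signalling through Erk sustains trophoblast stem cells in culture, and inhibition of Mek is used to hold ESCs in a naive state.

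The sequences of Rhox6 and Rhox9 limit what a count of uniquely placed 50-base reads can tell about each gene, so the stretch they share is shown. It is 241 bases long and lies in the coding part of a GENCODE transcript of each gene (GRCm38), at transcript bases 315 to 555 of Rhox6 and 152 to 392 of Rhox9. Capitals mark the 11 bases that differ, and the longest identical run is 161 bases.
Rhox6: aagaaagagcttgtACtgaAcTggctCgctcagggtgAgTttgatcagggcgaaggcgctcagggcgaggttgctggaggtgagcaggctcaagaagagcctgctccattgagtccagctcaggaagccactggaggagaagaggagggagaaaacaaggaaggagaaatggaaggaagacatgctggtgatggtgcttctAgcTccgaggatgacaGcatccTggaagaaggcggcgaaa
Rhox9: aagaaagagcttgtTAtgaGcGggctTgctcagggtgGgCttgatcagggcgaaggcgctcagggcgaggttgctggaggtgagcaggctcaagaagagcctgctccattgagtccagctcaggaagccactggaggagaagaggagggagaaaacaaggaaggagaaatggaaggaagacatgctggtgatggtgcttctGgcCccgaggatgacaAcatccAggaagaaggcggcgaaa
Of the 961 windows of 50 bases in the Rhox6 transcript, 159 (16.5%) occur in a Rhox9 transcript. Of the 2373 windows of Rhox9, 112 (4.72%) occur in a Rhox6 transcript. That Rhox9 transcript has 2422 bases and the gene in the files 898, so the share over the counted length may be larger. For Rhox6 the lengths are 1010 and 882 bases. Krt8 had the largest overlap, with 567 of 1909 windows (29.7%) also in another gene. Of these, 514 were in the pseudogene Krt8-ps and 53 in the noncoding gene Gm36026. The share was 1.86% for Gata3, 0.72% for Krt18 and 0 for Cdx2, Elf5, Tfap2c, Esx1 and Krt19. Values of Rhox6, Rhox9 and Krt8 are therefore uncertain to the extent that reads in shared stretches were dropped or placed elsewhere, and the files do not separate strands.

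Krt8 and Krt18 lie next to each other on chromosome 15 with 2 noncoding genes, Gm36026 and Gm41404, between them in the RefSeq annotation. They were the pair of members with the highest Pearson r across libraries (0.994), a likeness of pattern and not of level. The bases just upstream of their starts are shown for that reason, from the RefSeq promoter windows of GRCm38.p6, a later build than the mm9 of the files. Each window starts 250 bases before the RefSeq start and is cut where a GENCODE transcript begins. Krt8 is at chr15:102004483-102004592 on the minus strand (110 bases) and Krt18 at chr15:102027966-102028179 on the plus strand (214 bases). Capitals mark the match to a searched motif.
Krt8: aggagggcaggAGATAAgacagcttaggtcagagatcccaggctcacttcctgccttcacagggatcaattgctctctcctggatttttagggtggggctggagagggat
Krt18: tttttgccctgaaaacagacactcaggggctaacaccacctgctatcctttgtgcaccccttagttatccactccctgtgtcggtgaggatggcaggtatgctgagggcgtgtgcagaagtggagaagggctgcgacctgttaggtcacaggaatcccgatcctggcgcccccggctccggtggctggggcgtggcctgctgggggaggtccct
The motifs searched on both strands were AP-1 (TGACTCA, whose reverse complement is TGAGTCA), the Ets core (CCGGAA) and the Gata core (AGATAA), and no motif contains another. The Krt8 window held 1 match, the Gata core, and the Krt18 window held none. Among the first 110 bases of 32851 RefSeq promoter windows, 4.93% held the Gata core, 3.61% the Ets core and 1.79% the AP-1 letters. Over the first 214 bases the shares were 8.88%, 9.10% and 3.89%. A match describes the letters only. Windows were found for 6 of the 10 genes.

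Levels differed widely among the 10 genes. In every library Cdx2, Gata3 and Elf5 lay below each of the 3 keratins, while Tfap2c lay above all 3 in the libraries without Dox. Groups of 1 library allow no replicate check, so ratios compare libraries and 95% intervals cover counting error only. Reads carried no molecular identifiers, so duplicate reads could not be told from separate molecules, and the intervals may be too narrow. In bulk RNA, fewer cells of a type and less RNA per cell cannot be told apart. The gene Pou5f1 ran from 539 to 769 RPKM and Sox2 from 166 to 271 RPKM over the same libraries. The summed level of 8 pluripotency markers was 2582 to 4185 RPKM. The sum of 10 trophoblast markers, the 7 members that are not keratins with Eomes, Hand1 and Ascl2, was 55.0, 59.4, 22.3, 44.7, 36.7 and 44.7 RPKM in untreated and treated KH2, with Dox, at 48 hours, at 96 hours and at 96 hours with the inhibitor. It was lowest with Dox. Tfap2c, which ESCs also express, alone gave 25.8, 26.4, 14.6, 31.9, 15.6 and 18.8 RPKM of these sums. Elf5 was at 0 with Dox but added at most 0.199 RPKM in any library.

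Cdx2, the transcription factor that specifies trophectoderm and also acts in the posterior body axis, had 54 reads (2.77 RPKM) in untreated KH2 cells and 18 reads (0.927 RPKM) in treated KH2 cells. In the engineered line it had 11 reads with Dox, 8 at 48 hours, 3 at 96 hours and 2 at 96 hours with the inhibitor, or 0.545, 0.384, 0.140 and 0.0948 RPKM. The untreated KH2 library stood above the other 5, and no 2 neighbours in the order of the rest were apart beyond their counting intervals. Libraries further apart in that order could differ, as at 96 hours against Dox (3.88-fold lower, 1.02 to 21.7). Reads covered 66.4% of the Cdx2 gene length in untreated KH2 cells and 3.03% in the treated 96 hour library.

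Gata3, a zinc finger factor of trophectoderm, ran the other way. It had 7 reads (0.236 RPKM) in untreated KH2, 16 reads (0.543 RPKM) in treated KH2 and 15 reads (0.489 RPKM) in the line with Dox. Without Dox it had 62 reads (1.96 RPKM) at 48 hours, 65 reads (2.005 RPKM) at 96 hours and 84 reads (2.62 RPKM) with the inhibitor. The 3 libraries without Dox lay above the other 3, and within each of these sets neighbours were not apart beyond counting error.

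Elf5, an Ets-family factor of trophoblast stem cells, was close to the detection limit in every library. It had 2 reads in untreated KH2, 4 in treated KH2, 0 with Dox, 2 at 48 hours, 4 at 96 hours and 3 at 96 hours with the inhibitor. The 0 with Dox has an exact 95% interval that reaches 0.177 RPKM, and a floor of 3 reads would be 0.144 RPKM. No difference in Elf5 was detectable at this depth.

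Tfap2c, an AP-2 factor of trophoblast that ESCs and germ cells also express, was the most abundant of the transcription factors. It had 25.8 and 26.4 RPKM in the untreated and treated KH2 libraries (669 and 682 reads). In the engineered line it had 14.6 RPKM with Dox, 31.9 RPKM at 48 hours, 15.6 RPKM at 96 hours and 18.8 RPKM with the inhibitor, from 391, 883, 444 and 528 reads. The 48 hour library was the highest of the 6 and apart from the next, the treated KH2 library.

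The 3 X-linked homeobox genes shared 1 low point, the engineered line with Dox. Esx1, a paired-like homeobox gene of the placental labyrinth, had 6.13 RPKM in untreated KH2, 8.76 RPKM in treated KH2 and 1.18 RPKM with Dox. Without Dox it had 1.47 RPKM at 48 hours, 4.98 RPKM at 96 hours and 6.93 RPKM with the inhibitor. Its reads in that order were 90, 128, 18, 23, 80 and 110, and only the step between the 96 hour and the 48 hour library exceeded the counting intervals among neighbours in rank.

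Rhox6, a homeobox gene of placenta and germ cells, had 2.74 RPKM in untreated and 5.64 RPKM in treated KH2 cells, from 22 and 45 reads. With Dox it had 0.482 RPKM from 4 reads, then 1.99 RPKM from 17 at 48 hours, 2.28 RPKM from 20 at 96 hours and 4.50 RPKM from 39 with the inhibitor. The library with Dox was the lowest and apart from its neighbour.

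Rhox9, the adjacent gene of the cluster, had 2.82 RPKM in untreated and 8.37 RPKM in treated KH2 cells, from 23 and 68 reads. With Dox it had 0.473 RPKM from 4 reads, then 2.64 RPKM from 23 at 48 hours, 1.79 RPKM from 16 at 96 hours and 3.17 RPKM from 28 with the inhibitor. The treated KH2 library was apart at the top and the library with Dox at the bottom. Across the 6 libraries Rhox6 and Rhox9 had a Pearson r of 0.936 on log2(RPKM + 0.5), a description that the shared sequence above touches.

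Krt8, the type II keratin, had 33.2 RPKM in untreated and 59.0 RPKM in treated KH2 cells, from 545 and 964 reads. In the engineered line it had 25.0 RPKM with Dox, 23.5 RPKM at 48 hours, 10.9 RPKM at 96 hours and 12.96 RPKM with the inhibitor, from 425, 412, 195 and 230 reads. Krt18, its usual type I partner, followed the same order of libraries. It had 23.0, 35.0, 19.8, 16.9, 11.05 and 12.7 RPKM, from 293, 443, 261, 229, 154 and 175 reads.

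Krt19, a type I keratin that lacks the long tail domain, had another order. It had 36.2 RPKM (497 reads) in untreated and 69.9 RPKM (955 reads) in treated KH2 cells. It had 4.86 RPKM (69 reads) in the line with Dox, 3.41 RPKM (50 reads) at 48 hours, 11.5 RPKM (172 reads) at 96 hours and 17.997 RPKM (267 reads) with the inhibitor. All neighbours in this order were apart beyond counting intervals except the libraries with Dox and at 48 hours. The plot of RPKM by gene shows these orders.

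**Figure D1:**
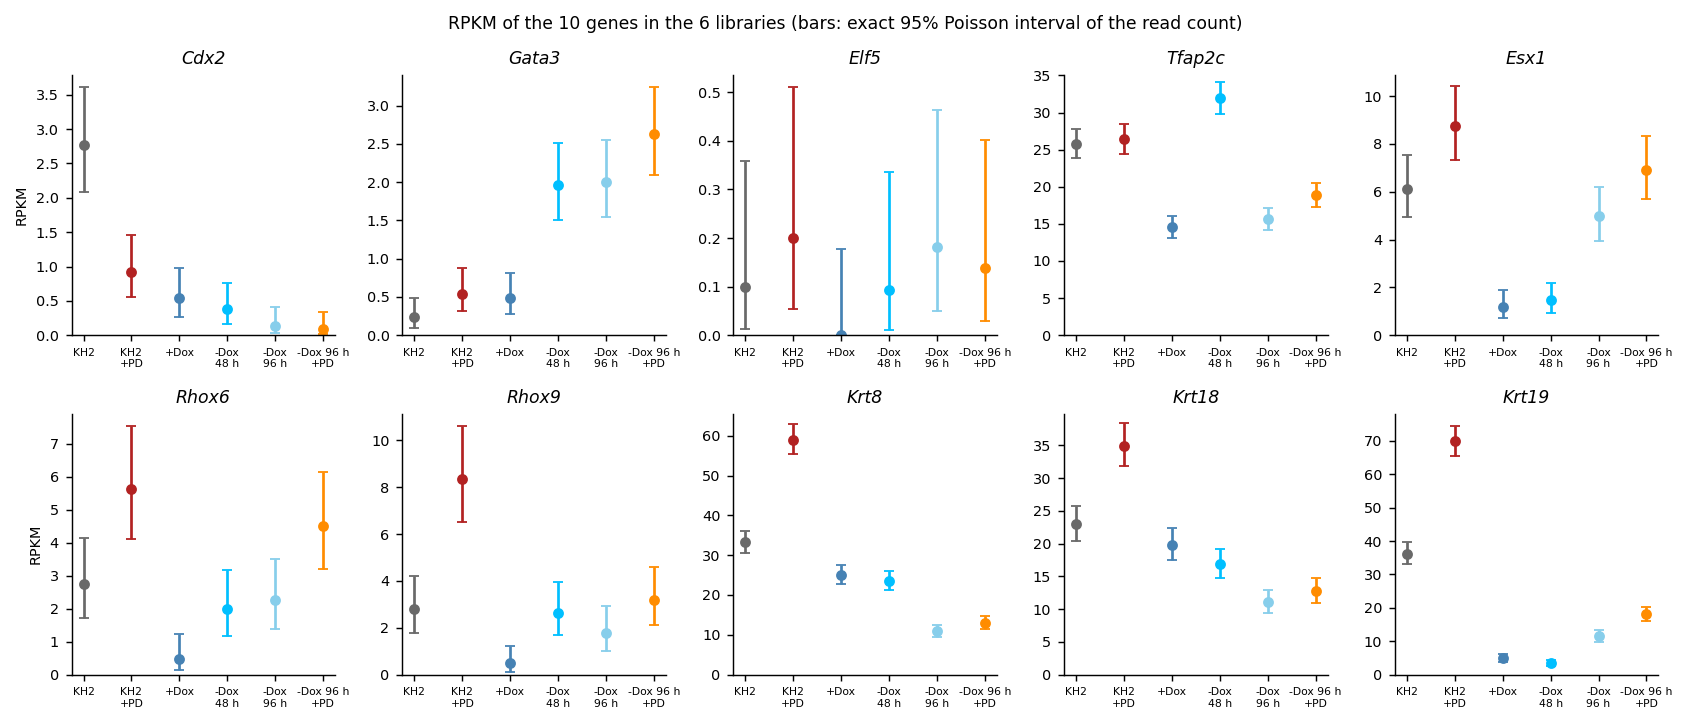
RPKM (y axis, linear and starting at 0, scaled per gene) of each of the 10 genes in the 6 libraries (x axis; PD, PD0325901). Points are single libraries and bars are exact 95% Poisson intervals of the read count, which cover counting error only. Cdx2 was highest in untreated KH2 at 2.77, Gata3 lay at 1.96 or above in the libraries without Dox, and Krt19 ran from 3.41 to 69.9.

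The first comparison concerned inhibition of Mek in wild-type cells. In treated KH2 cells Rhox9 was 2.97-fold higher (1.83 to 4.99) and Cdx2 was 2.99-fold lower (1.72 to 5.41) than in untreated cells. Genes passed a size rule when the log2 ratio of RPKM + 0.5 was at least 1 in size, RPKM was at least 1 in the higher library, both libraries held at least 20 reads together and the 95% interval of the read ratio excluded 1. Of the 10 members 8 reached the limits on reads and RPKM, with Gata3 and Elf5 too low. The 1 member higher stands against 3.86% of the 12787 genes tested that were higher, and the 1 lower against 1.22%.

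The other genes lay under the 2-fold limit of this comparison on the log2 scale. Krt19 was 1.93-fold higher (1.73 to 2.16), Krt8 1.78-fold (1.60 to 1.98) and Krt18 1.52-fold (1.31 to 1.77), and Rhox6 was 2.05-fold higher by reads (1.21 to 3.59) with a log2 ratio of 0.92. Esx1 had a ratio of 1.43 (1.08 to 1.89) and Tfap2c one of 1.02 (0.919 to 1.14). With a pseudocount of 1 RPKM in place of 0.5, Cdx2 had a log2 ratio of -0.97 and did not pass. The median log2 ratio of all 10 members, those below the limits included, was 0.55, against -0.02 over all genes tested.

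The second comparison asked the same of cells without Dox for 96 hours. None of the 8 members that reached the limits passed there, with 1.34% of 11920 genes higher and 0.587% lower. Rhox6 was 1.97-fold higher (1.12 to 3.57), Krt19 1.57-fold (1.29 to 1.92), Esx1 1.39-fold (1.03 to 1.88) and Tfap2c 1.20-fold (1.06 to 1.37). Intervals reached below 1 for Rhox9 at 1.77-fold (0.926 to 3.51), Gata3 at 1.31-fold (0.935 to 1.84), Krt8 at 1.19-fold (0.983 to 1.45) and Krt18 at 1.15-fold (0.921 to 1.44). Cdx2 had 3 and 2 reads, too few for a ratio. The median log2 ratio of all 10 members, those below the limits included, was 0.29, against 0.01 over all genes tested.

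Both treated and untreated pairs together gave the main test of PD0325901, and a fit of all 6 libraries was an alternative. This was edgeR's quasi-likelihood test on 4 libraries, with cell state as a block and 1 residual degree of freedom. Its variance drew mostly on other genes, with a median prior of 13.8 degrees of freedom. Of the 9 members tested, 3 rose with PD0325901 and none fell at a Benjamini-Hochberg adjusted p under 0.05. Of all 14782 genes, 6.05% rose and 2.92% fell. Krt19 rose by 0.83 on the log2 scale (SE 0.13, edgeR adjusted p = 0.000671). Krt8 rose by 0.59 (SE 0.14, edgeR adjusted p = 0.0173) and Rhox9 by 1.27 (SE 0.33, edgeR adjusted p = 0.0263). Each of these 3 was higher in 2 of 2 pairs, but the test used the same pairs, so their direction was not a separate check. Gata3, Tfap2c, Esx1, Rhox6 and Krt18 were also higher in both pairs and were not called. The share of all genes higher in both pairs was not counted. Krt8 and Rhox9 were not called by DESeq2, where Krt19 was the 1 member called. None of the 3 was called by edgeR without the block (adjusted p = 1 for each) or with all 6 libraries in 3 states, where Krt19 had a log2 fold change of 1.09 (edgeR adjusted p = 0.326), Rhox9 one of 0.95 (0.474) and Krt8 one of 0.12 (0.954).

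The other 6 tested members missed the threshold. Cdx2 had a log2 fold change of -1.43 (SE 0.46, edgeR adjusted p = 0.07), which rests on the KH2 pair, since it had 5 reads in the other. Rhox6 had 1.01 (SE 0.32, edgeR adjusted p = 0.0646), Krt18 0.43 (SE 0.16, 0.103) and Esx1 0.50 (SE 0.20, 0.14). Gata3 had 0.54 (edgeR adjusted p = 0.327) and Tfap2c 0.15 (0.481). Elf5 had under 20 reads and was not tested. Counted without adjustment, 7 of the 9 had p under 0.05 with edgeR, against 3327 of all 14782 genes (22.5%). The difference between the pairs was not tested.

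Markers of another cell type moved with these results. Of 12 fibroblast markers, 8 passed as higher in treated KH2 cells and 8 in the treated 96 hour library, led in KH2 by Col1a1, Col3a1 and Col1a2, which encode fibrillar collagen chains. Col1a1 was 9.11-fold higher (8.82 to 9.41) in KH2 and 8.41-fold higher (7.92 to 8.93) in the cells without Dox. With edgeR 9 of the 12 rose. Their summed level was 229, 1500, 82.3, 80.9, 117 and 551 RPKM in untreated and treated KH2, with Dox, at 48 hours, at 96 hours and at 96 hours with the inhibitor, and none of the 12 was at 0 in any library. Col1a1 alone gave 878 RPKM of the sum in treated KH2 and 218 RPKM in the treated 96 hour library. Krt8, Krt18, Krt19, Rhox6, Rhox9, Esx1, Gata3 and Tfap2c were higher where this sum was higher within each pair. Some of these ratios had intervals that held 1, as given above. The part of fibroblast RNA in those results was not tested.

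Krt8, Krt18 and Krt19 are also expressed in endoderm. Of 14 primitive and parietal endoderm markers, 1 passed as higher in treated KH2 (Col4a1, a basement membrane collagen) and 1 as lower (Cubn, an endocytic receptor), and none passed in the cells without Dox. Their sum was 241, 340, 168, 156, 161 and 209 RPKM in the same order of libraries, and only Fxyd3 was at 0, with Dox and at 96 hours. Cdx2 is also a gene of the posterior axis. Of 10 markers of that axis and the primitive streak, 3 were lower in treated KH2 cells, Hoxb1, Wnt8a and Mixl1, and their sum was 35.2, 21.8, 10.5, 5.73, 5.29 and 3.86 RPKM. Cdx4 was at 0 in untreated KH2, Fgf8 with Dox, Evx1 at 96 hours, and Wnt8a and Hoxb1 at 96 hours with the inhibitor. Cdx2 and this sum had the same order of libraries, and the part of such cells in the Cdx2 values was not tested.

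**Figure D2:**
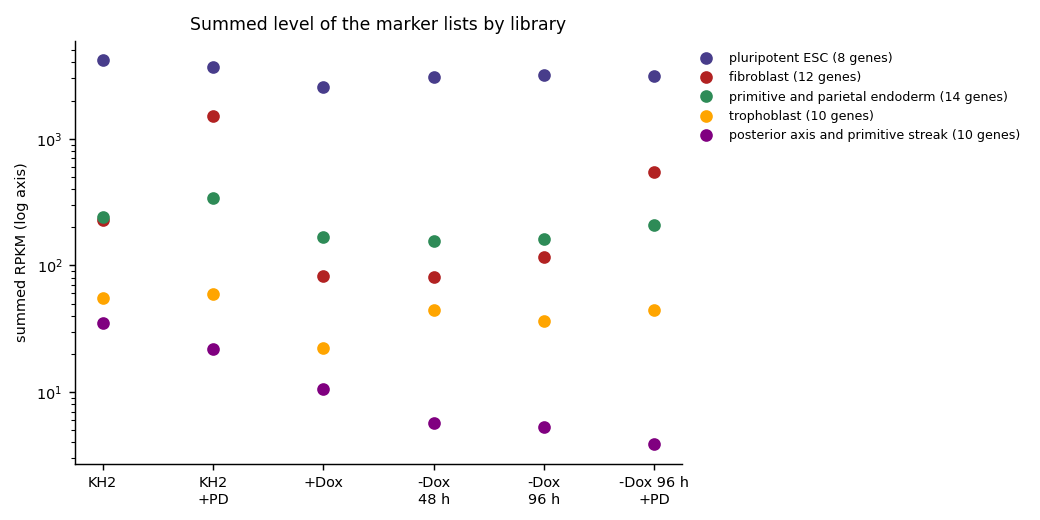
Summed RPKM (y axis, log scale) of the 5 marker lists in the 6 libraries (x axis; PD, PD0325901), with 1 point per list and library. The fibroblast sum was 229 and 1500 RPKM in the KH2 pair and 117 and 551 RPKM in the 96 hour pair, while the pluripotent sum stayed between 2582 and 4185 RPKM.

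The third comparison asked what 48 hours without Dox did in the engineered line. Of 8 members that reached the limits, 4 were higher at 48 hours and none lower, with 2.77% of 11386 genes higher and 2.13% lower. Rhox9 was 5.58-fold higher (1.91 to 22.2) and Rhox6 4.12-fold (1.34 to 16.8), each against 4 reads with Dox. Gata3 was 4.01-fold higher (2.25 to 7.59) and Tfap2c 2.19-fold (1.94 to 2.47). With a pseudocount of 1 RPKM Gata3 had a log2 ratio of 0.99 and did not pass. Esx1 had a ratio of 1.24 (0.640 to 2.44). The keratins lay lower with intervals that held 1, at 1.06-fold for Krt8, 1.18-fold for Krt18 and 1.42-fold for Krt19. The median log2 ratio of all 10 members, those below the limits included, was 0.24, against -0.03 over all genes tested.

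After 96 hours without Dox, again set against the same library with Dox, 5 of 8 members were higher and 1 was lower. Among all 11804 genes tested, 7.62% were higher and 2.07% lower. Rhox6 was 4.73-fold higher (1.58 to 19.015), Esx1 4.20-fold (2.50 to 7.45), Gata3 4.10-fold (2.31 to 7.73), Rhox9 3.78-fold (1.22 to 15.5) and Krt19 2.36-fold (1.77 to 3.16). Krt8 was 2.31-fold lower (1.94 to 2.75) and passed, and Krt18 was 1.79-fold lower (1.46 to 2.20) and did not. Krt19 and its type II partner Krt8 thus passed in opposite directions. Cdx2 had 3 reads against 11 and did not reach the limits, with a ratio of 3.88 lower (1.02 to 21.7). Tfap2c was at 1.07 (0.935 to 1.23). With a pseudocount of 1 RPKM Rhox9 had a log2 ratio of 0.92 and did not pass. The median log2 ratio of all 10 members, those below the limits included, was 0.80, against 0.05 over all genes tested.

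Both comparisons share the library with Dox, in which Rhox6 and Rhox9 had 4 reads each, so that library enters every ratio. Of the 14 endoderm markers, 1 was lower at 48 hours, Gata6, and 6 at 96 hours, led by Gata6, Cubn and Dab2. Gata6, a factor of primitive endoderm, was 6.96-fold lower (4.93 to 10.1) at 96 hours, where Krt8 was lower too. The part of such cells in the Krt8 value was not tested. Of the pluripotency markers Nanog was higher and Utf1 lower at both times. Of the fibroblast markers Twist1 was lower at 48 hours and Dcn higher at 96 hours.

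The last comparison set the engineered line with Dox against untreated KH2 cells. None of 8 members was higher and 5 were lower in the engineered line, where 2.76% of 12421 genes were higher and 21.4% lower. Krt19 was 7.46-fold lower (5.79 to 9.74), Rhox9 5.95-fold (2.03 to 23.7), Rhox6 5.69-fold (1.93 to 22.7), Esx1 5.18-fold (3.10 to 9.13) and Cdx2 5.08-fold (2.63 to 10.8). The median log2 ratio of all 10 members, those below the limits included, was -1.23, against -0.37 over all genes tested. Marker lists were lower there too, with 6 of 12 fibroblast markers, 5 of 10 markers of the posterior axis and streak and 3 of 14 endoderm markers passing as lower, and their part in the member values was not tested.

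Scaling changed the split of calls in this comparison. TMM factors shift the read ratios of this comparison by 0.39 on the log2 scale, less for low genes once the pseudocount is added, and turn 343 genes higher and 2662 lower into 970 higher and 1446 lower. The same 5 members passed under it, with Krt19 at -2.40 and Cdx2 at -1.37 on the log2 scale. Krt8 went from -0.40 to -0.02, Krt18 from -0.21 to 0.17 and Tfap2c from -0.80 to -0.42, none of which passed. In the 96 hour comparison with Dox the shift was -0.11 and the same 6 members passed. The files of the KH2 libraries carry gene symbols and those of the engineered line do not, so line and file format cannot be told apart.

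**Figure D3:**
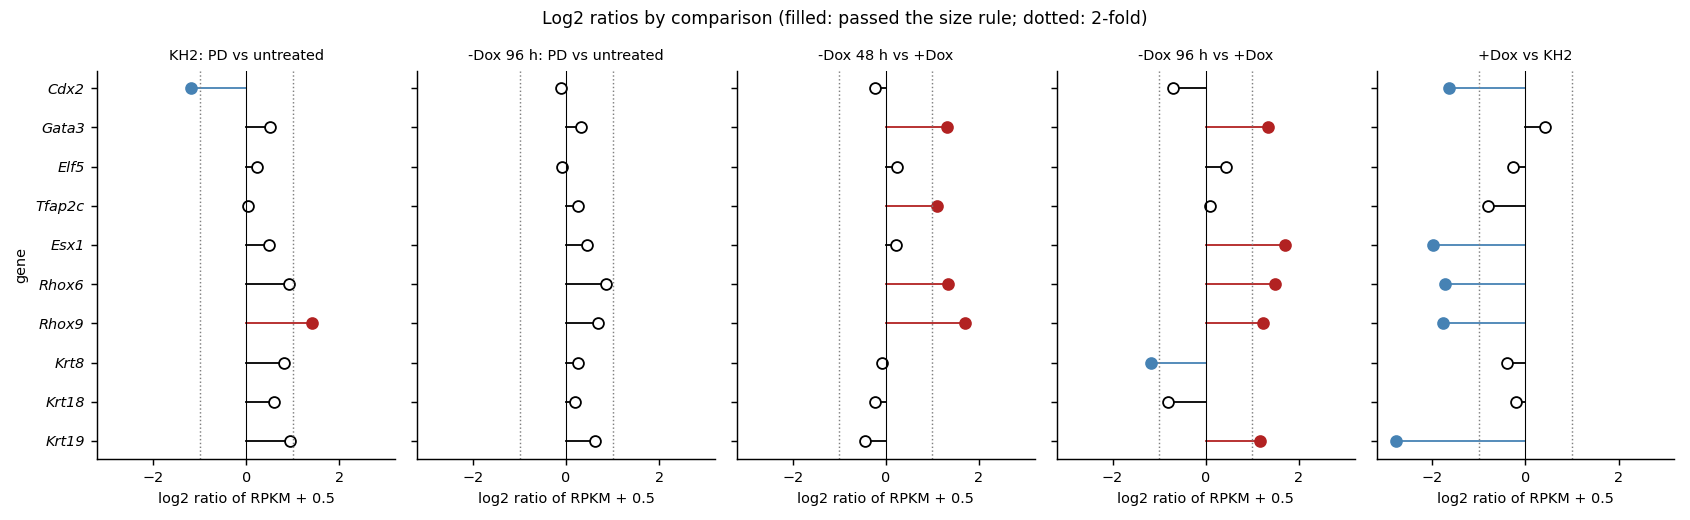
Log2 ratio of RPKM + 0.5 (x axis) of each of the 10 genes (y axis) in the 5 comparisons, named above each panel as first against second library. Filled points passed the size rule, red as higher and blue as lower, and dotted lines mark 2-fold. The panels hold 1, 0, 4, 5 and 0 red points and 1, 0, 0, 1 and 5 blue points from left to right.

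The make-up of the keratin pair differed among libraries. Krt19 made up 61.1% (57.6 to 64.6, exact 95% interval) of the summed RPKM of Krt18 and Krt19 in untreated KH2 cells and 66.7% (64.1 to 69.2) in treated KH2 cells. The share was 19.7% (15.6 to 24.3) with Dox and 16.8% (12.7 to 21.6) at 48 hours without it. At 96 hours it was 50.9% (45.3 to 56.5), and 58.6% (53.8 to 63.3) with the inhibitor. The libraries with Dox and at 48 hours lay far below the other 4, and their intervals did not overlap with those of the others.

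Krt8 was 1.44 times the level of Krt18 per length in untreated KH2 (1.25 to 1.67) and 1.69 times in treated KH2 (1.51 to 1.89). The ratio was 1.26 with Dox, 1.40 at 48 hours, 0.982 (0.791 to 1.22) at 96 hours and 1.02 (0.834 to 1.25) with the inhibitor. Against the sum of both type I keratins, Krt8 stood at 0.561 and 0.563 in the KH2 libraries, 1.01 and 1.16 with Dox and at 48 hours, and 0.482 and 0.422 at 96 hours. The 3 keratins summed to 92.5, 164, 49.7, 43.8, 33.4 and 43.7 RPKM in the 6 libraries, highest in treated KH2 cells.

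**Figure D4:**
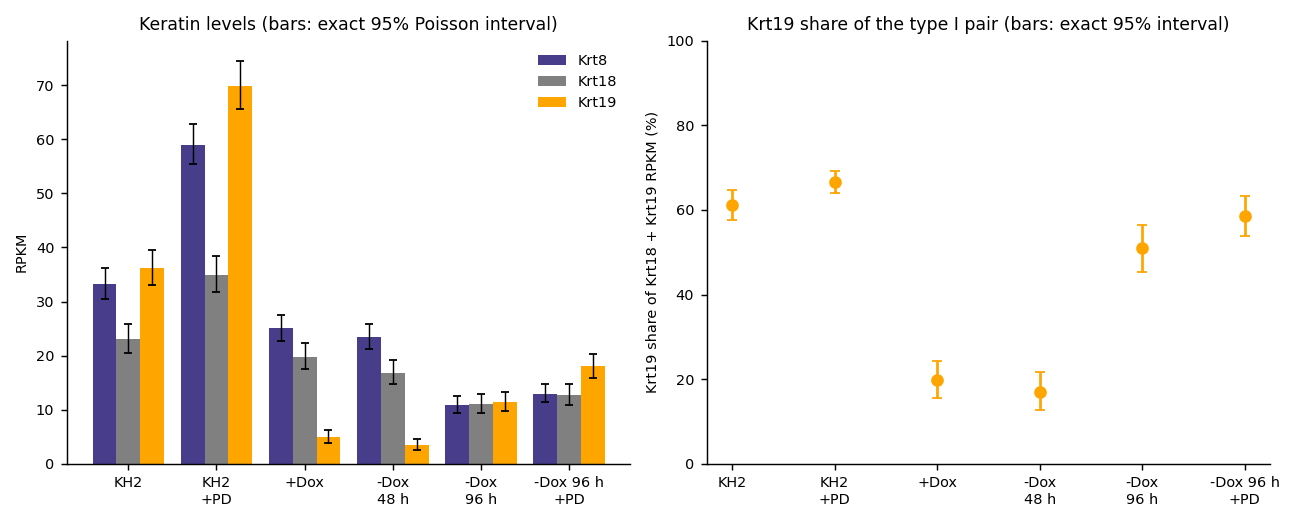
Left, RPKM of Krt8, Krt18 and Krt19 (y axis from 0) in the 6 libraries (x axis; PD, PD0325901), with exact 95% Poisson intervals. Right, the Krt19 share of the summed Krt18 and Krt19 RPKM in percent, with exact 95% intervals. The share was 19.7% with Dox and 16.8% at 48 hours, and between 50.9% and 66.7% in the other 4 libraries.

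Other genes of trophoblast were read beside the same shares of all genes. Of 18 further transcription factors and signalling genes, 15 were tested in the KH2 pair, where none was higher and 2 were lower, Peg10, an imprinted retrotransposon-derived gene needed for the placenta, and Phlda2, an imprinted gene that restrains placental growth. Peg10 was 2.27-fold lower (2.14 to 2.40) in KH2 and 2.32-fold lower (2.14 to 2.51) in the cells without Dox, where it was the 1 gene of the list that passed. With edgeR, 2 of 17 tested genes fell, Peg10 by 1.20 (SE 0.10, edgeR adjusted p = 5.93e-07) and Phlda2 by 1.33 (SE 0.30, edgeR adjusted p = 0.0115). The inhibitor of differentiation gene Id2 rose by 0.72 (SE 0.20, edgeR adjusted p = 0.0333). DESeq2 called Peg10 and no other gene of this list.

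Peg10 was also 2.11-fold lower (2.0 to 2.22) at 48 hours without Dox and 2.18-fold lower (2.07 to 2.30) at 96 hours. Of 14 tested at 96 hours, Phlda2 was lower as well and Ascl2, an imprinted factor of the spongiotrophoblast, was 7.56-fold higher (2.98 to 24.5). Ascl2 had 92 reads in untreated KH2, 58 in treated KH2, 5 with Dox, 10 at 48 hours, 40 at 96 hours and 34 with the inhibitor. With Dox against KH2, of 16 tested, Ascl2, Bmp8b, Cited1, Dlx3 and Phlda2 were lower and Tfap2a was higher. The library with Dox was thus the lowest for Ascl2, as for Esx1, Rhox6 and Rhox9. For Esx1 it was not apart from the 48 hour library (ratio 1.24, 0.640 to 2.44), and Ascl2 had few reads in both. Many genes were low with Dox, as 21.4% of genes tested were lower than in KH2 and 7.62% were higher at 96 hours than with Dox. The share of all genes lowest with Dox was not counted.

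The products of placental cells were uneven. Of 18 such genes, 12 had reads in at least 1 library, and Prl3d1, Prl3b1, Tpbpa, Ctsq, Ctsj and Psg18 had no row, which means no read or no match by symbol. The list summed to 135, 144, 60.0, 53.3, 65.8 and 66.5 RPKM in the 6 libraries. Mmp9, a gelatinase of invading cells, was 3.81-fold lower (2.84 to 5.18) in treated KH2 and 3.87-fold lower (2.85 to 5.36) in the treated 96 hour library. Plac8, expressed in spongiotrophoblast and in other tissues, was 3.23-fold higher (1.25 to 9.84) at 48 hours and 4.57-fold (1.86 to 13.5) at 96 hours, and 35.5-fold lower (16.1 to 98.0) with Dox than in KH2. Adm, a peptide hormone gene, was 5.79-fold higher (2.72 to 14.2) at 96 hours and 37.5-fold lower (18.8 to 87.7) with Dox than in KH2.

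Of 13 other Rhox genes 7 were in the table. Only Rhox1 passed, at 96 hours without Dox, with 33 reads against 3. Rhox5, the founding gene of the cluster, was the most abundant at 31.1, 25.6, 28.6, 18.97, 50.7 and 35.3 RPKM in the 6 libraries, so it had no low point with Dox as Rhox6 and Rhox9 did. No other Rhox gene of 4 tested was called by edgeR or by DESeq2 for PD0325901, and 1 had an unadjusted p under 0.05 with edgeR.

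No keratin outside the 3 members passed in any of the 5 comparisons. Only 4 of the 11 on this list could be tested in each comparison, and 3 at 48 hours without Dox. The rest could not pass. Among all genes tested, the share passing in a given direction ran from 0.587% to 21.4%. With so few keratins tested, the lack of calls does not set the members apart. Of 11 such genes 6 were tested with edgeR and none was called by it or by DESeq2, with none at an unadjusted p under 0.05. Their summed level was 12.8 to 21.6 RPKM. Of 18 genes of epithelial junctions and their regulators, Grhl2, an epithelial transcription factor, was lower in treated KH2, by 3.19-fold (2.48 to 4.13), and none passed in the cells without Dox. With edgeR, Epcam, Esrp1, Grhl2 and Pkp2 fell and none rose, and DESeq2 called Grhl2 alone.

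At 96 hours without Dox the tight junction gene Cldn6 was the 1 epithelial gene that passed, as higher. With Dox against KH2 7 were lower, led by Esrp1, Cldn7 and Cldn6, and Dsg2, a desmosomal cadherin, was higher. Cdh1, the cadherin of epithelia and ESCs, ran from 119 to 179 RPKM and passed in none of the 5 comparisons.

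Genes most like each member were sought among 5906 genes whose 6 libraries summed to at least 100 reads and that had a range of log2(RPKM + 0.5) of at least 1. These correlations over 6 libraries are descriptions, since the libraries share line and treatment. For Krt8 the first was Krt18 (Pearson r 0.994), followed by Pkia (0.987) and Ankrd52 (0.983), and the same genes led for Krt18. For Krt19 they were Ip6k2 (0.998), Pld2 (0.998) and Dixdc1 (0.997), and the r between Krt19 and Krt8 was 0.504.

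For Gata3 the nearest were Crxos (0.9995), Tmem231 (0.997) and Nsf (0.997). Crxos, a homeobox gene, had 0.537, 1.57 and 1.23 RPKM in the libraries of KH2, treated KH2 and with Dox, and 9.06, 10.2 and 15.5 RPKM in those without Dox. For Tfap2c the nearest were Tubb3 (0.940), Pramel12 (0.877) and Fbrsl1 (0.867). For Esx1 they were Grk3 (0.9995), Tmem45a (0.996) and Micall2 (0.996), for Rhox6 Jag1 (0.9995), Maged1 (0.993) and Pklr (0.992), and for Rhox9 Ackr3 (0.988), Srgap3 (0.987) and Chst12 (0.987). Cdx2 and Elf5 had fewer than 100 reads in all and were left out. Cdx2 and Gata3 ran against each other, with an r of -0.881 and a Spearman rho of -0.943. Cdx2 had 18 reads or fewer outside untreated KH2, and most neighbours in either order overlapped within counting error. These ranks are therefore uncertain.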

How the data were processed

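PolyA RNA libraries of mouse ESCs were read as single-end 50-base reads, 1 library for each of 6 groups, and groups were taken from the labels. The read count of a gene is the number of reads placed uniquely on it by the authors, per the file headers, and these counts sum to each library's total. The deposited RPKM values equal these counts per kilobase and 1e6 reads, as a recalculation for all genes showed. The deposited percent gives how much of a gene's length reads covered. Per the submitters' processing notes the genome was mm9. The aligner, counter and annotation are not given in the sources used here.

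Files were joined by gene ID over 18857 genes, with an absent row as 0 reads, and 18805 IDs matched a RefSeq symbol. Of these genes 41 differ in length between files, none of them a member. The members and lists were chosen with earlier results of these data known.

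Ratios compare libraries scaled by totals, with a pseudocount of 0.5 RPKM and exact 95% Clopper-Pearson intervals of the read split (scipy 1.17.1). Levels have exact Poisson intervals. The labels name 3 of the 5 comparisons, and the groups imply those of 96 hours without Dox against Dox and of Dox against KH2. The effect of PD0325901 was tested with edgeR 4.0.16 (TMM, at least 20 reads over 4 libraries, Benjamini-Hochberg over all genes) in R 4.3.3, and with DESeq2 1.42.0 as an alternative. Both the size rule and the edgeR test were checked on simulated data. Depth was 9.05 to 9.95 times 1e6 reads per library. A floor of 3 reads was set for a count of 0, below the upper end of its exact 95% interval.

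All 10 members are named. From each other list, up to 3 passing genes with the largest log2 ratio and those completing a count of at most 5 are named, with Pou5f1, Sox2, Col1a1 and Mapk3 for reference and the 3 genes most like each member. Rhox5, Cdh1 and Fxyd3 were also named after their values were seen. Alternatives were other pseudocounts, TMM scaling, no filter, a fold limit of 1.5, and for the test other scaling, DESeq2, no filter, no block and all 6 libraries.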

Additional observations from a re-analysis of the deposited data

How the results depend on the processing

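Of 30 alternative counts of members, 23 stayed within 1.5 times the first value and 7 moved. Within those 23, a pseudocount of 1 RPKM ended the calls of Gata3 at 48 hours (4 members to 3) and Rhox9 at 96 hours (6 to 5), and one of 0.1 RPKM added Rhox6 in the KH2 pair. In treated against untreated KH2 cells 2 members passed, 1 (Rhox9) with a pseudocount of 1 RPKM and 6 with a fold limit of 1.5. In the 96 hour pair none passed, and 2 (Rhox6 and Krt19) with a fold limit of 1.5. In the test of PD0325901, 3 members were called, 5 with DESeq2 size factors (Cdx2 and Rhox6 added), 1 with DESeq2 (Krt19), and 0 with edgeR without the block on cell state or with all 6 libraries in 3 states. At an unadjusted p under 0.05, 0 members passed without the block (1.83% of all genes) and 3 with 6 libraries (11.2%). Over these 5 alternatives the adjusted p ran from 3.87e-07 to 1 for Krt19, from 0.000515 to 1 for Krt8 and from 0.00539 to 1 for Rhox9. Tfap2c turned to -0.23 on the log2 scale with all 6 libraries, and the cause was not tested. Of 195 alternative values of single genes, 176 stayed within the counting interval of the ratio or, in the test, on the same side of the threshold.

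Over all genes edgeR called 1326, DESeq2 441, edgeR with all 6 libraries 118 and edgeR without the block 0, with 270 of 14782 at an unadjusted p under 0.05. A fold limit of 1.5 raised the genes passing from 649 to 1855 and from 230 to 657 in the 2 inhibitor comparisons, from 557 to 1682 and 1143 to 2743 without Dox, and from 3005 to 5875 with Dox against KH2. With 1 library per group no library could be left out of a comparison, and leaving 1 out of the edgeR test leaves no residual degree of freedom. Depth limited Elf5 throughout and Cdx2 in the engineered line, where reads were 11 or fewer.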

Other observations

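The engineered line at 96 hours without Dox was also set against 48 hours, a comparison chosen after the values were seen and given as a description of 2 libraries. Krt19 was 3.35-fold higher (2.43 to 4.69) at 96 hours and Esx1 3.39-fold higher (2.11 to 5.65). Krt8 was 2.17-fold lower (1.82 to 2.58), Tfap2c 2.04-fold lower (1.82 to 2.29) and Krt18 1.53-fold lower (1.24 to 1.88). Some of the 14 endoderm markers were lower at 96 than at 48 hours. Cubn had 359 and 31 reads at 48 and 96 hours, Dab2 570 and 132, Lama1 2272 and 1185 and Gata6 80 and 38. Others were not lower, with Col4a1 at 3765 and 6463 reads, and the sum of the list was 156 and 161 RPKM. The part of endoderm cells in the keratin values was not tested. Gata3 had a ratio of 1.02 (0.710 to 1.47) and Rhox6 one of 1.15 (0.571 to 2.33). Mapk3 had 118 and 119 reads in these libraries. These are RNA counts and not levels of Erk1 protein, and the part of Erk1 in the differences was not tested.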
